A study of Mus musculus with 4 samples.

Results

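Leukocyte adhesion molecules and integrins were examined in liver RNA sequencing of C57BL/6 mice fed for 3 weeks a diet that induces steatohepatitis (NASH diet). The set comprised 9 genes, taken by symbol from the 24346 genes listed for each library, and all 9 were listed. It held 4 endothelial ligands (Icam1, Vcam1, Sele and Selp) and 5 leukocyte receptors (Selplg, Itgal, Itgam, Itga4 and Itgb2). The mice were young adult wild type males, and the NASH diet was rich in cholesterol, sucrose and cocoa butter and held cholate. The control group (n = 2) received this diet alone and the 7KC group (n = 2) received it with added 7-ketocholesterol (7KC), an oxidized derivative of cholesterol. Both groups therefore had diet-induced steatohepatitis, there was no group on normal chow, and no skin treatment had been given when the livers were taken. The labels number the libraries as replicates without saying whether each came from a separate animal. The p-values therefore weigh group differences against a variance estimated from these libraries, which need not be that between animals.

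Leukocytes leave the blood in steps. Selectins on the vessel wall (Sele, also called E-selectin, and Selp, P-selectin) slow the cells by binding sugar-modified Selplg (PSGL-1) on their surface. Chemokines then switch integrins into a binding form, and the cells stop when the integrins grip the endothelial proteins Icam1 and Vcam1. An integrin is a pair of an alpha and a beta chain. Itgb2 is the beta chain shared by Itgal (the pair LFA-1) and Itgam (the pair Mac-1), both of which bind Icam1. Itga4 pairs with Itgb1 or Itgb7 and binds Vcam1 or Madcam1. In the liver much of this traffic passes through sinusoids, whose endothelium relies less on selectins than the vessels of other organs. The assignment to cells is not strict, since Icam1 is also made by leukocytes and hepatocytes, Vcam1 by macrophages and stellate cells, and Selp by platelets.

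Promoter sequences were looked up because the endothelial ligands are textbook targets of the transcription factor NF-kappaB and the Itgam promoter of PU.1, a factor of myeloid cells. Windows of 300 bases, from 250 before the gene start to 50 after it, were available in RefSeq (build GRCm38.p6) for 5 of the 9 genes. The 4 windows with a match are printed here. Capitals mark matches on either strand to GGNNNTTCC, an NF-kappaB-like motif, in Icam1 (chr9:21015690-21015989, plus strand), Sele (chr1:164047984-164048283, plus strand) and Selp (chr1:164115014-164115313, plus strand), and to GAGGAA, a PU.1-like motif, in Itgam (chr7:128062390-128062689, plus strand).
Icam1: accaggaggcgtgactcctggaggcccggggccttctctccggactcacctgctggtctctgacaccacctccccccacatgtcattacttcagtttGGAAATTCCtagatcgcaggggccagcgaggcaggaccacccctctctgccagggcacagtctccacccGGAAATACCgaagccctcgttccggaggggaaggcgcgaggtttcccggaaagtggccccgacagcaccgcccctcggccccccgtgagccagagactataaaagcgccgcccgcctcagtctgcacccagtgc
Sele: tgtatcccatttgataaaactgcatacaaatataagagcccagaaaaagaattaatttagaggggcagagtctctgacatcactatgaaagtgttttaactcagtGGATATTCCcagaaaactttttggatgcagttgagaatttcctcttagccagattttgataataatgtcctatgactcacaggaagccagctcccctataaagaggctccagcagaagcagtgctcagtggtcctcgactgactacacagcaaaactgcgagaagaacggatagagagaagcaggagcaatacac
Selp: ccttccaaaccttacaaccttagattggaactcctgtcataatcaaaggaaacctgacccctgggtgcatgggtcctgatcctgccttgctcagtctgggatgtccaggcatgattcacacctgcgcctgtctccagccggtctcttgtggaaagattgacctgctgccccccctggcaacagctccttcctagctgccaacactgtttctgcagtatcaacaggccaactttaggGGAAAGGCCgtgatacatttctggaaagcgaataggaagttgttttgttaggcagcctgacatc
Itgam: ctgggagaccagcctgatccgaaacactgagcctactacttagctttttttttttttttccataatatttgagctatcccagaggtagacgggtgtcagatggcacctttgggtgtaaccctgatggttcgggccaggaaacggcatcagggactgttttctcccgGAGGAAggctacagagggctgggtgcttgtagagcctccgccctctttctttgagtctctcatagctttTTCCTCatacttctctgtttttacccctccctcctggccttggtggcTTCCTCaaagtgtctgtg

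The Icam1 window held 2 NF-kappaB-like matches. The first, GGAAATTCC, lay 153 to 145 bases before the gene start and matched on both strands, and the second lay 84 to 76 bases before it. Distances are from the RefSeq start, which for Icam1 is position 21015940, 45 bases upstream of the GENCODE start given further on, and for the other windows is the same in both annotations. Sele held 1 match, 145 to 137 bases before the start, and Selp held 1, 14 to 6 bases before it. Of all 32851 promoter windows in the table, 18.5% held this motif. The PU.1-like motif was found at 3 positions in Itgam and at 1 in Sele, against 28.3% of all windows with at least 1. The windows of Itgam and Itga4 held no NF-kappaB-like match, and none of the 5 windows held the interferon response motif searched, which was present in 3.44% of all windows. These matches describe letters in a window and were not tested for use in these livers.

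Values are FPKM, the fragments per kilobase of exon model, scaled to the mapped fragments of the library, so levels can be compared between genes. From the steps between low values, the libraries were estimated to hold 13500000 to 16900000 mapped reads. Icam1 had the reads of about 392 to 1139 fragments per library and Sele of about 3 to 10, and the latter is close to the limit of detection. Differences were tested with limma on log2(FPKM + 0.5) over 12299 genes whose average over the 4 libraries reached 0.5 FPKM, and log2 changes are 7KC minus control on that scale. With 2 libraries against 2, an exact permutation test on 1 gene cannot reach a p of 0.05. Of the 9 genes, 7 passed the filter. Each of these had at least 1.3 FPKM in every control library, so none passed through the 7KC group alone. Sele (mean 0.17 FPKM) and Selp (0.489 FPKM) fell below the filter and are described by their values.

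In the 7KC group 1 gene of the set, Icam1, rose past an adjusted p of 0.05 in limma, and no gene of the set fell. Of all tested genes 0.48% were called higher and 0.0244% lower by this rule. In all 7 tested members the lower 7KC value exceeded the higher control value, which held for 25.1% of all tested genes, and in 6 of them the group means also differed at least 2-fold (6.5% of all tested genes). In bulk liver, a greater number of leukocytes and more of a transcript per leukocyte cannot be told apart. All 7 had an unadjusted p under 0.05 with a higher value, against 12% of all tested genes. The median log2 change was 1.11 for the 2 tested ligands and 1.34 for the 5 receptors, against -0.03 for all tested genes, and the difference of 0.22 between receptors and ligands was given no test because it is a score over chosen genes. Calls depended on single libraries: 5 members passed without control replicate 1, a fit that called 3.16% of all tested genes higher, and none passed without control replicate 2, 7KC replicate 1 or 7KC replicate 2.

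**Figure D1:**
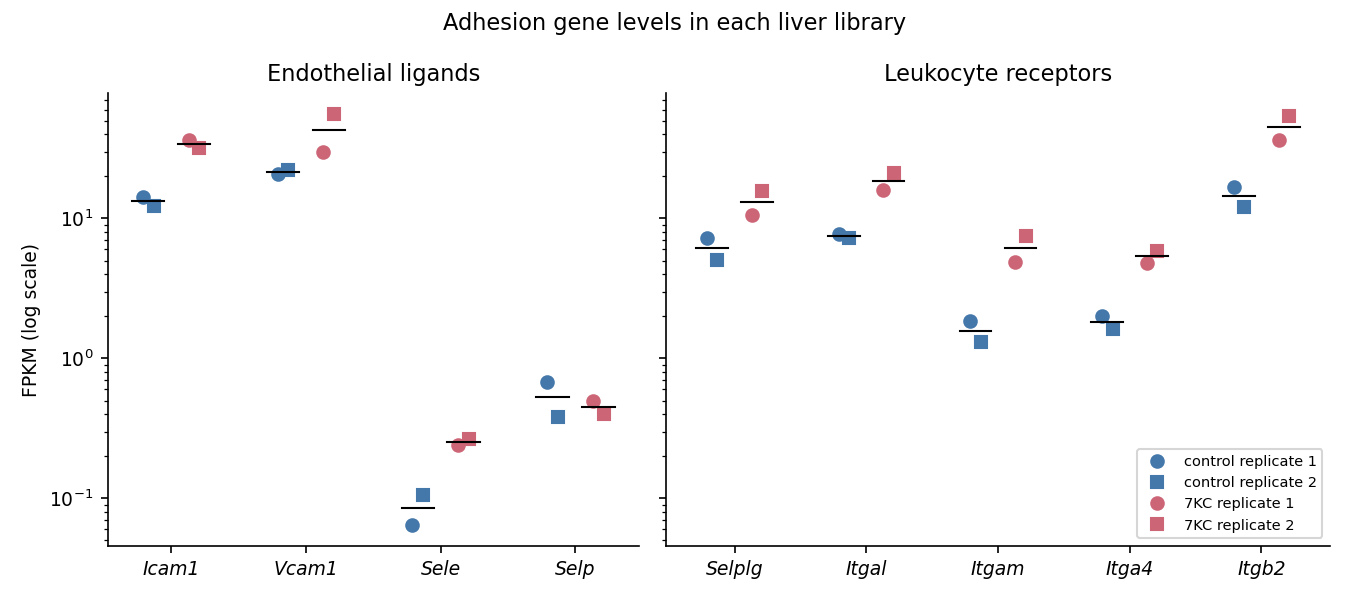
FPKM of the 9 adhesion genes on a log axis in each of the 4 libraries, with control in blue, 7KC in red, circles for replicate 1, squares for replicate 2 and black lines for group means. Both 7KC points lie above both control points for every gene except Selp, whose points overlap between 0.379 and 0.682 FPKM.

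Icam1 (chromosome 9, 21015985 to 21028817, plus strand), the ligand of LFA-1 and Mac-1, was at 14.2 and 12.3 FPKM in controls against 36.1 and 31.7 FPKM with 7KC. Both groups were tight and well apart. The group means were 13.3 ± 1.34 FPKM and 33.9 ± 3.11 FPKM (SD, n = 2 each), a ratio of 2.56. The log2 change was 1.32 (SE 0.13, limma adjusted p 0.034), and 232 of the 12299 tested genes had a larger rise. The adjusted p was 0.0886, 0.152 and 0.224 when control replicate 2, 7KC replicate 1 or 7KC replicate 2 was left out, whereas the log2 change stayed between 1.22 and 1.42 without any single library.

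Vcam1 (chromosome 3, 116109949 to 116129688, minus strand), the counterpart of Itga4 integrins, was the most abundant member in the control group. It was at 20.8 and 22.3 FPKM in controls against 29.9 and 55.7 FPKM with 7KC. The 7KC libraries differed from each other by more than the lower one differed from the control libraries, so the size of the change rested on 7KC replicate 2. The means were 21.6 ± 1.08 and 42.8 ± 18.2 FPKM (SD, n = 2 each), and the log2 change of 0.91 (SE 0.29) did not pass the threshold (limma adjusted p 0.215). Without 7KC replicate 2 the log2 change was 0.46.

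The selectins were low. Sele (chromosome 1, 164048234 to 164057677, plus strand) had 0.0644 and 0.106 FPKM in controls against 0.242 and 0.266 FPKM with 7KC, so that the groups did not overlap. These values correspond to about 3 and 4 reads in the control libraries and to about 9 and 10 reads in the 7KC libraries. Relative to depth the ratio over the summed reads was 3.05, with an exact 95% interval of 1.23 to 8.6 that covers counting error only and not the spread between livers. Tested without the filter, Sele gave a fitted log2 difference of 0.37 (SE 0.09, limma adjusted p 0.204), a scale on which a pseudocount of 0.5 FPKM compresses the change of so low a gene.

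Selp (chromosome 1, 164115264 to 164150026, plus strand) was the only member without separation of the groups. It was at 0.682 and 0.379 FPKM in controls against 0.494 and 0.401 FPKM with 7KC, or about 17 to 37 reads each. The ratio over the summed reads was 0.834 (exact 95% interval 0.54 to 1.28, counting error only), and without the filter the log2 change was -0.11 (SE 0.19, limma adjusted p 0.821). A gene on the opposite strand, Gm16548, overlaps Selp and was listed at 5.81 to 9.16 FPKM. Whether strand was used in the counting is not given in the sources used here, so the low Selp values are uncertain. Platelets also carry Selp, and their 5 markers had summed levels of 4.95 to 7.24 FPKM in controls against 5.84 to 6.62 FPKM with 7KC.

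The Itgb2 integrins came next. Itgb2 (chromosome 10, 77530252 to 77565708, plus strand), the shared beta chain, was at 16.8 and 12.1 FPKM in controls against 36.2 and 53.6 FPKM with 7KC. Every 7KC library exceeded the higher control library more than 2-fold. The means were 14.5 ± 3.3 and 44.9 ± 12.3 FPKM (SD, n = 2 each), and the log2 change was 1.59 (SE 0.24, limma adjusted p 0.0617).

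Itgam (chromosome 7, 128062640 to 128118491, plus strand), the alpha chain of Mac-1 on monocytes, macrophages and neutrophils, had a log2 change of 1.67 in the reported fit (SE 0.24, limma adjusted p 0.0596), the highest estimate there, although Itgb2 was higher with a pseudocount of 1 FPKM (1.56 against 1.46) and Icam1 without 7KC replicate 2 (1.41 against 1.39). It was at 1.84 and 1.3 FPKM in controls against 4.88 and 7.47 FPKM with 7KC. The ratio of the means was 3.93, and 85 tested genes had a larger rise. A gene on the same strand, Gm49368, overlaps Itgam in GENCODE and had no listed value. Any reads that it shares with Itgam cannot be told apart here. Itgal (chromosome 7, 127296260 to 127335138, plus strand), the alpha chain of LFA-1 on lymphocytes and other leukocytes, was at 7.68 and 7.21 FPKM in controls against 15.9 and 21.1 FPKM with 7KC. Its control libraries nearly coincided, and the log2 change was 1.24 (SE 0.16, limma adjusted p 0.0523).

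Itga4 (chromosome 2, 79255426 to 79333123, plus strand), the alpha-4 chain that binds Vcam1, was at 2.01 and 1.62 FPKM in controls against 4.83 and 5.87 FPKM with 7KC. The groups were apart by more than their spread, with means of 1.82 ± 0.276 and 5.35 ± 0.742 FPKM (SD, n = 2 each) and a fitted log2 difference of 1.34 (SE 0.17, limma adjusted p 0.0519). The opposite-strand gene Cerkl overlaps Itga4 and was listed at 0.862 to 1.3 FPKM. Selplg (chromosome 5, 113818536 to 113832644, minus strand), the selectin ligand of leukocytes, was at 7.29 and 5.08 FPKM in controls against 10.5 and 15.6 FPKM with 7KC. Its log2 change of 1.01 (SE 0.25, limma adjusted p 0.137) was the smallest among the receptors.

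The 4 integrin genes thus missed the threshold in the reported fit, and the side of it on which they fell varied between settings. Without control replicate 1 their adjusted p-values in limma were 0.0456 for Itgal, 0.0356 for Itgam, 0.0307 for Itga4 and 0.0328 for Itgb2. With all libraries rescaled to the same sum of FPKM they were 0.0322, 0.0375, 0.0313 and 0.0355, a scaling that moved the median log2 change of all genes from -0.03 to 0.17 and called 3.27% of all tested genes higher. They ran from 0.119 to 0.142 without control replicate 2, from 0.152 to 0.159 without 7KC replicate 1 and from 0.294 to 0.344 without 7KC replicate 2. Without a filter on low values they ran from 0.142 to 0.151.

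**Figure D2:**
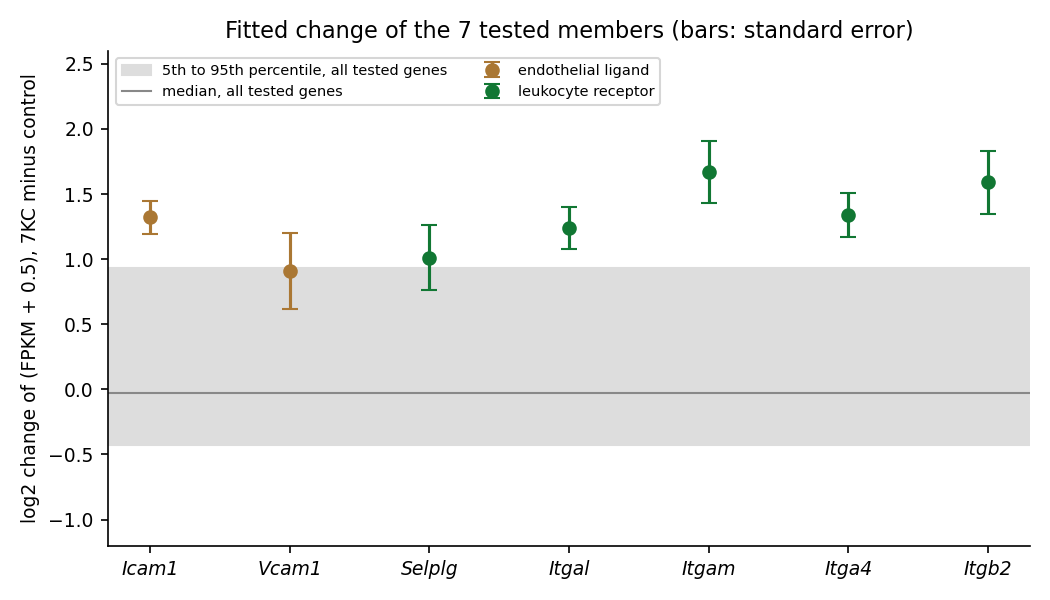
Fitted log2 change of (FPKM + 0.5), 7KC minus control, of the 7 tested members with standard errors as bars, ligands in brown and receptors in green. The grey band spans the 5th to 95th percentile of all 12299 tested genes (-0.43 to 0.93) and Vcam1 alone has its estimate inside it.

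The order of levels differed little between groups. In the control group Vcam1 was the highest, followed by Itgb2 and Icam1, then Itgal and Selplg, then Itga4 and Itgam, with Selp and Sele last. Within each of the pairs Itgb2 and Icam1, Itgal and Selplg, and Itga4 and Itgam the control libraries overlapped, so their order was not resolved. In the 7KC group Itgb2 (44.9 FPKM), Vcam1 (42.8 FPKM) and Icam1 (33.9 FPKM) had overlapping neighbours, as had Itgam (6.18 FPKM) and Itga4 (5.35 FPKM), and the other neighbours were apart.

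Genes with the profile most like that of a member were sought by the distance between centred log2 values over the 4 libraries. For Icam1 the nearest were Cd3e, a T-cell CD3 chain (distance 0.0802), Tlr2, a receptor for microbial lipoproteins (0.0925), and Oasl1, an interferon-induced gene (0.0986). For Itgam they were Csf2rb, a cytokine receptor chain (0.0778), Emb (0.0782) and its own partner Itgb2 (0.0974). With 4 libraries many genes share such a profile, and the distances are a description.

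Receptors and ligands were next set against genes of the cells that carry them. Markers common to all leukocytes were higher as well: all 6 were separated upwards, and their summed level was 78.4 to 111 FPKM in controls against 199 to 259 FPKM with 7KC. Laptm5 had a fitted log2 difference of 1.21 (limma adjusted p 0.0704) and Arhgdib one of 1.36 (adjusted p 0.0534), the same range as the receptors. Markers of endothelial cells overlapped between groups in 8 of 8 genes, with summed levels of 123 to 140 FPKM in controls against 113 to 162 FPKM with 7KC. Among them Clec4g, of sinusoidal endothelium, was at 56.8 ± 5.68 and 61.6 ± 14.1 FPKM and Eng at 29.3 ± 4.51 and 27.9 ± 6.24 FPKM (SD, n = 2 each). For comparison, 25.1% of all tested genes were separated upwards and 27.4% downwards. The part of either cell type in the results was not tested.

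Divided within each library by Ptprc (CD45), the phosphatase carried by all leukocytes, the receptors no longer moved alike. Itgam over Ptprc was 0.217 and 0.231 in controls against 0.314 and 0.362 with 7KC, higher without overlap. Itgb2 over Ptprc was also higher without overlap, at 1.98 and 2.15 against 2.33 and 2.6. Selplg over Ptprc went the other way, at 0.861 and 0.899 in controls against 0.673 and 0.754 with 7KC. Itgal over Ptprc (0.906 and 1.28 against 1.02 and 1.02) and Itga4 over Ptprc (0.237 and 0.287 against 0.311 and 0.285) overlapped between groups. Relative to Ptprc the ratio of the 7KC mean to the control mean was thus 1.51 for Itgam, 1.19 for Itgb2, 1.14 for Itga4, 0.937 for Itgal and 0.811 for Selplg. No other divisor was used for the receptors. The log2 changes of the 6 leukocyte markers ran from 0.96 (Cd53) to 1.36 (Arhgdib), with Ptprc at 1.31. The split of the receptors therefore holds for Ptprc only and can differ with another marker.

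For the ligands, the divisor was Cdh5 (VE-cadherin), which holds endothelial cells together. Icam1 over Cdh5 was 1.43 and 1.01 in controls against 3.58 and 2.06 with 7KC, and Vcam1 over Cdh5 was 2.09 and 1.82 against 2.97 and 3.62. Both stayed higher without overlap, with ratios of the means of 2.32 and 1.68. Cdh5 itself overlapped between groups (log2 change 0.17), at 9.95 and 12.3 FPKM in controls against 10.1 and 15.4 FPKM with 7KC. Before division the ratios of the means were 2.56 for Icam1 and 1.99 for Vcam1, so both were smaller after it. Because Cdh5 differed between the 7KC libraries, division also set these further apart for Icam1 and closer together for Vcam1. Ratios of the ligands to a leukocyte gene were not taken, although leukocytes also make Icam1 and macrophages Vcam1. Ptprc had a log2 change of 1.31, so ligand and receptor ratios rest on unlike divisors and are not compared. Sele over Cdh5 was higher too (ratio of the means 2.72), and Selp over Cdh5 overlapped. The summed alpha chains Itgal, Itgam, Itgax and Itgad over their shared beta chain Itgb2 were 0.771 and 0.805 in controls against 0.731 and 0.72 with 7KC, so the balance of alpha to beta transcripts moved by a ratio of 0.921. These ratios were given no test.

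**Figure D3:**
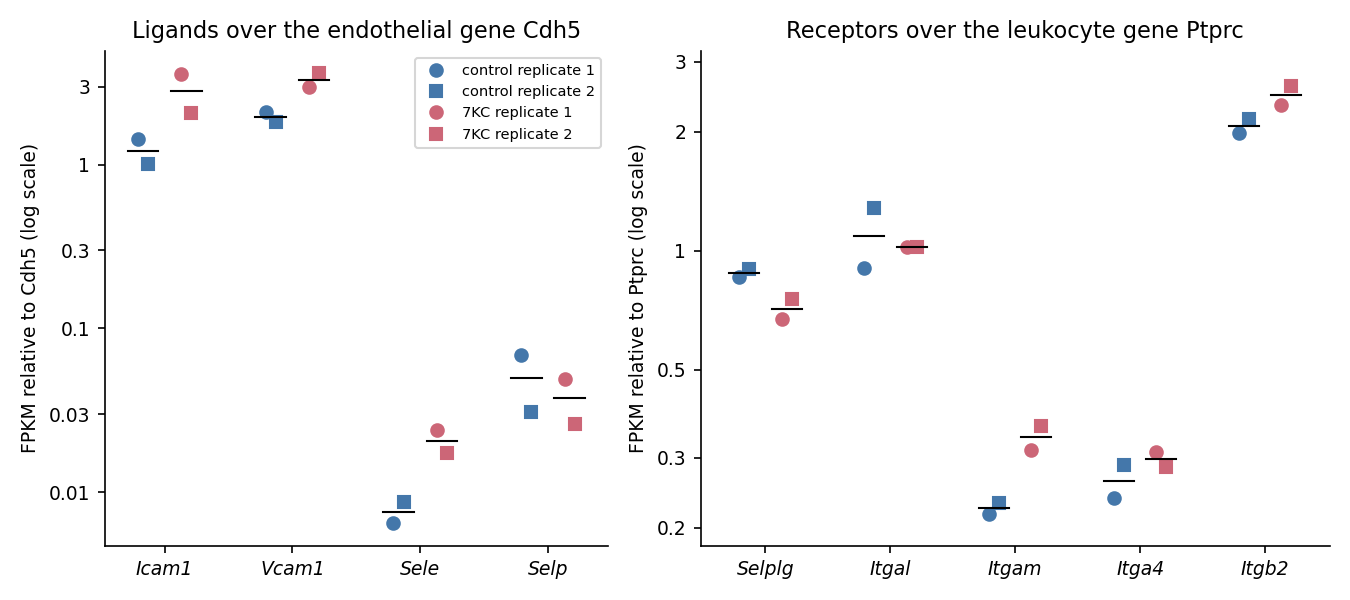
Level of each ligand relative to Cdh5 and of each receptor relative to Ptprc within the same library, on log axes, with symbols as in the plot of levels and lines for group means. Relative to Cdh5, Icam1, Vcam1 and Sele stay apart and Selp overlaps. Relative to Ptprc, Itgam and Itgb2 stay higher, Selplg is lower, and Itgal and Itga4 overlap. The divisors differ between the panels.

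The other genes of the adhesion cascade were read from 7 lists. Of 63 tested genes none passed the limma threshold in either direction, while 26 had an unadjusted p under 0.05 with a higher value and 1 with a lower value. By that rule 12% of all tested genes were higher and 5.81% lower. The groups were separated upwards in 37 of the 63 genes and downwards in 4, against 25.1% and 27.4% of all tested genes. With libraries rescaled to the same sum 10 of them passed (3.27% of all tested genes were then called higher), and without control replicate 1 the number was 8 (3.16% of all tested genes).

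Among the other integrins, 10 of 14 were tested and the median log2 change was 0.23. Itgb7, the beta chain that pairs with Itga4 on lymphocytes bound for the gut, was at 3.37 and 2.86 FPKM in controls against 7.54 and 9.21 FPKM with 7KC (log2 change 1.29, SE 0.16, limma adjusted p 0.0512). Itgb1, the other partner of Itga4 and a chain of nearly all cells, was at 56.3 and 58.1 FPKM against 55.9 and 53.4 FPKM (log2 change -0.07, adjusted p 0.781). Itgax (CD11c), the alpha chain of dendritic cells and some macrophages, varied widely (log2 change 1.62, SE 0.45, adjusted p 0.167), and Itga5, a fibronectin receptor chain, had 0.59 (SE 0.19, adjusted p 0.218).

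Other molecules of the vessel wall stayed near the median of all genes. Of 14 tested, 12 overlapped between groups, whereas of all tested genes 25.1% were separated upwards and 27.4% downwards. The log2 changes of the 14 ran from -0.29 to 0.36 and the median was 0.11. Icam2, the second LFA-1 ligand, was at 2.87 and 4.8 FPKM in controls against 4.14 and 5.89 FPKM with 7KC (log2 change 0.36, SE 0.27, limma adjusted p 0.528). The junction protein F11r had a log2 change of 0.22 (adjusted p 0.491) and Cd99l2, used in the passage through the vessel wall, had -0.15 (adjusted p 0.511). Madcam1, the gut vessel ligand of the Itga4 and Itgb7 pair, was listed at 0 in both control libraries and at 0.06 FPKM in both 7KC libraries. That is below the lowest Sele value of 0.0644 FPKM and close to the limit of detection, so the difference from 0 was not resolved. Glycam1 was listed at 0 in all 4.

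Rolling receptors of leukocytes other than Selplg had a median log2 change of 0.82 over 5 genes. Spn (CD43), a mucin of leukocytes, had 1.19 (SE 0.20, limma adjusted p 0.0704) and Cd44, a hyaluronan receptor, had 0.93 (SE 0.17, adjusted p 0.0813). The enzymes that decorate selectin ligands had a median of 0.07 over 7 genes. In that list Fut7, the fucosyltransferase of leukocytes, was at 0.425 and 0.0931 FPKM against 0.701 and 0.975 FPKM (log2 change 0.85, adjusted p 0.24), Gcnt1 had 0.54 (adjusted p 0.326) and the tyrosine sulfotransferase Tpst1 had -0.44 (adjusted p 0.33).

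Genes that switch integrins on had a median log2 change of 0.55, and 11 of 14 were higher with 7KC without overlap (25.1% of all tested genes were). Vav1, a signalling protein, had 1.19 (SE 0.19, limma adjusted p 0.0621), Apbb1ip, the adaptor RIAM, had 1.03 (SE 0.17, adjusted p 0.0648) and Fyb, the adaptor ADAP, had 1.10 (SE 0.19, adjusted p 0.0754). All of these are chiefly expressed in blood cells. Of the proteases that shed adhesion molecules, the log2 change was 0.72 for Adam17 (SE 0.15, adjusted p 0.0966), 0.85 for Adam8 (adjusted p 0.174) and 0.26 for Adam10 (adjusted p 0.438).

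Inducers of the endothelial ligands had a median log2 change of 0.71 over 10 genes, with 9 higher in both 7KC libraries (25.1% of all tested genes were). Ifng, the interferon of T and NK cells, was at 0.408 and 0.362 FPKM in controls against 2.99 and 1.38 FPKM with 7KC (log2 change 1.53, SE 0.32, limma adjusted p 0.104). Irf1, a transcription factor induced by interferon, had 1.15 (SE 0.23, adjusted p 0.0965) and Nfkb1, an NF-kappaB subunit, had 0.51 (SE 0.11, adjusted p 0.104).

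**Figure D4:**
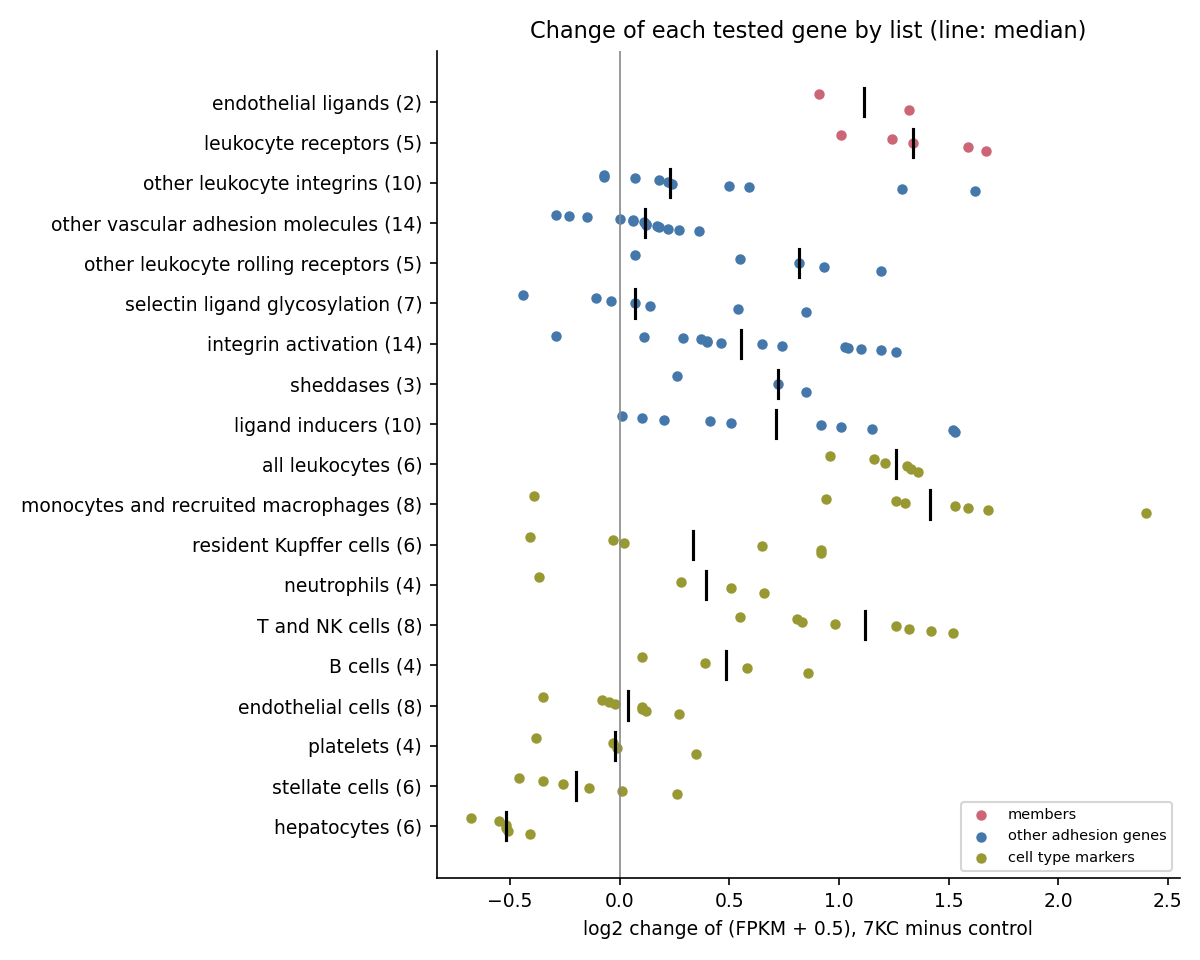
Log2 change of every tested gene in the member lists (red), the other adhesion lists (blue) and the cell type marker lists (olive), with the number of tested genes in brackets and a black line at each median. The receptors (median 1.34) lie in the range of the markers of all leukocytes (1.26) and of monocytes and recruited macrophages (1.41), and other vascular adhesion molecules (0.11) lie near endothelial markers (0.04).

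The leukocyte classes that could carry these receptors differed among themselves. Of all tested genes 25.1% were higher and 27.4% lower without overlap. Of the 8 monocyte and recruited macrophage markers 7 were higher without overlap, among them Plac8 with a log2 change of 1.68 (limma adjusted p 0.0523). F10, also a clotting factor of hepatocytes, was lower without overlap at -0.39 (adjusted p 0.261). The summed level of the 8 was 250 to 284 FPKM in controls against 363 to 404 FPKM with 7KC. Most of the control sum was F10, at 200 and 193 FPKM in controls against 166 and 135 FPKM with 7KC. All 8 tested T and NK cell markers were higher without overlap (summed level 13.2 to 18.8 FPKM against 41.1 to 45.2 FPKM), among them Nkg7 with 1.32 (adjusted p 0.0523) and Cd3g with 1.52 (adjusted p 0.0648). Of the 4 tested markers of neutrophils, cells that also carry Itgam and Itgb2, 1 was higher and 1 lower without overlap. S100a8 was at 16.6 and 6.87 FPKM against 18.8 and 15.8 FPKM and S100a9 had a log2 change of 0.51 (adjusted p 0.257), while Camp, at 1.05 and 0.934 FPKM against 0.565 and 0.748 FPKM, had -0.37 (adjusted p 0.38). Retnlg overlapped, at 1.91 and 1.46 FPKM against 0.736 and 5.11 FPKM, and Mpo was below the filter.

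B-cell markers had a median log2 change of 0.49 over 4 tested genes, with Cd79a at 3.43 and 1.1 FPKM in the control libraries against 2.99 and 2.58 FPKM and Cd79b at 1.59 and 0.73 FPKM against 2.28 and 2.56 FPKM. Resident Kupffer cell markers, of macrophages that can carry Vcam1, had a median of 0.34 over 6 genes, of which 3 were higher and 1 lower without overlap (25.1% and 27.4% of all tested genes). Among these Kupffer markers Marco had 0.92 (limma adjusted p 0.0966). Timd4 was at 7.44 and 7.62 FPKM in controls against 13.3 and 16.3 FPKM with 7KC (log2 change 0.92, SE 0.14, limma adjusted p 0.0606). Cd5l was at 105 and 112 FPKM in controls against 126 and 232 FPKM with 7KC, with 7KC replicate 2 far above 7KC replicate 1. Vsig4 was lower, at 40.1 and 43 FPKM in controls against 25.4 and 38.4 FPKM with 7KC (log2 change -0.41, limma adjusted p 0.375), and Clec4f (-0.03) and Folr2 (0.02) overlapped. Stellate cells, another possible source of Vcam1, had a median of -0.20 over 6 genes, with Dcn at -0.35 (adjusted p 0.287) and Colec11 at -0.26 (adjusted p 0.321). Platelet markers had a median of -0.02, with Pf4 at 0.35 (adjusted p 0.371) and Ppbp at -0.03 (adjusted p 0.969).

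Hepatocyte markers, which show that the tissue was liver, had a median log2 change of -0.52 over 6 genes. Alb was at 41547 and 25202 FPKM in controls against 26969 and 18988 FPKM with 7KC, and Apoa1 at 12660 and 15782 FPKM against 10023 and 7790 FPKM. Because FPKM is relative to all fragments of a library, these levels enter the scale of every other gene. The part of these cell classes in the values of the adhesion genes was not tested.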

How the data were processed

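RNA sequencing of 4 liver samples was used, 2 of the control group and 2 of the 7KC group, grouped by the sample titles. The authors made stranded poly(A) libraries, sequenced single-end reads on an Illumina HiSeq and mapped them to mm10. The deposited unit is FPKM, 1 value per gene symbol and library. Tools per the labels were TopHat2 2.1.1, Bowtie2 2.2.8, SAMtools 0.1.18 and Cuffdiff 2.2.1, whereas the methods text names Cufflinks and other releases. Annotation, multi-read and strand settings are not given in the sources used here.

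Depth was estimated as the number of mapped reads at which low values of single-transcript genes (367 to 389 per library, 200 bases taken off each length) came out whole. Within 0.1 read, 78.2% to 80.2% did so, against a median of 13.3% to 15.3% over other depths. These reads only describe depth. Genes averaging 0.5 FPKM or more were tested on log2(FPKM + 0.5) with limma 3.58.1 in R 4.3.3 (eBayes with trend, 2 residual and 3.27 prior degrees of freedom), with Benjamini-Hochberg adjustment over 12299 genes and a threshold of 0.05. The procedure was tested on simulated data. The members, lists, motifs and tests were chosen with earlier results of these data known. Named were all members, the 3 genes of each adhesion list with the smallest p and any past the threshold, and the 2 most abundant markers of each cell type, except 1 rolling receptor that is not reported here; Itgb1, Madcam1, Glycam1, Camp, Retnlg, Mpo, Vsig4, Clec4f and Folr2 were added after their values were seen. The symbols Cd99 and Ly6g were not matched. Gene positions are from GENCODE M21 on the same build, and promoter windows from RefSeq. Alternatives were other pseudocounts, filters, scalings and prior variances, a replicate block, and leaving out each library.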

Additional observations from a re-analysis of the deposited data

How the results depend on the processing

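Directions of all 7 tested members were the same under 12 other settings (the crossed block given last is not among them), and the count of members at least 2-fold higher without overlap ranged from 5 (without 7KC replicate 2) to 7. The number past the adjusted threshold in limma, 1 as reported, was not stable. It was 2 with a pseudocount of 1 FPKM (Icam1 and Itga4, adjusted p 0.0496), where 111 genes in all were called higher against 59 as reported, and 5 after rescaling to the same sum, where 402 were. It was 0 without a filter, without a trend in the prior variance and with the replicate number as a block. Leaving out 1 library gave 0 to 5, the 5 without control replicate 1, where 389 genes were called higher and 52 lower. Icam1 had an adjusted p of 0.119 without a filter, 0.0603 without the trend and 0.151 with the replicate block, under which the 4 integrin genes ran from 0.194 to 0.207. Of the other adhesion genes, 0 as reported, 1 passed with a pseudocount of 1 FPKM (Itgb7), 10 after rescaling to the same sum and 0 to 8 when 1 library was left out. The ligand median was 1.33 after rescaling to the same sum. Without a filter it was 0.64, since Sele and Selp then enter, and the receptor minus ligand difference was 0.70.

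The sample titles give replicate numbers but do not say that same-numbered libraries form pairs. Deviations of same-numbered libraries had a correlation of -0.141 over 12299 genes. With 2 libraries per group the deviations within a group are mirror images, so this value cannot decide on pairing. The block took the calls over all genes from 59 higher and 3 lower to 0 and 0 in limma, with 1851 at an unadjusted p under 0.05. A crossed replicate block, chosen after seeing the data, gave 551 higher and 37 lower, with 6 members and 13 other adhesion genes past the threshold. Selplg was among these members and Vcam1 was not. Depth limits Sele and Selp, and 2 libraries per group limit every test.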
